A study of Mus musculus with 98 samples.

Results

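The transcripts of 9 Wnt ligands, Wnt2, Wnt2b, Wnt4, Wnt5a, Wnt5b, Wnt6, Wnt9a, Wnt10b and Wnt11, were followed through the mouse thymic stroma. The genes were taken as a list of names, chosen with earlier results of these data known. All 9 were found in each of the 3 expression tables, among 22231 genes of a single-cell age series, 20760 genes of a newborn single-cell dataset and 39179 gene identifiers of bulk RNA sequencing. All mice of the age series and of the bulk data were wild type (WT, C57BL/6). The age series held live Ter119-CD45-EpCAM- cells, that is, nonepithelial thymic stroma (NETS), with 1 library each at E12.5 and E13.5 (E, embryonic day) and 2 each at E16.5, the day of birth (P0) and 4 weeks (W4). The newborn dataset held live Ter119-CD45- cells, epithelium included, from 3 Tbx1+/-Crkl+/- mice, which carry 1 lacZ allele of Tbx1 and 1 germline null allele of Crkl, and from 3 WT littermates. These newborn cells had been fixed in RNAprotect before capture. Bulk libraries, 6 per group, came from sorted gp38+CD26+, gp38+CD26-, CD31+ and Ly51+gp38- cells and from cortical and medullary thymic epithelial cells (cTEC, mTEC) at P0 and at 4 weeks (4wk), and from mTEChi and mTEClo cells at 4 weeks. Thymi of the 2 earliest ages were pooled from several embryos, and digests of adult thymi were depleted of CD45+ cells with beads, a step that cannot be told apart from age at W4.

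Wnt proteins are secreted lipid-modified ligands that act over short distances. Porcn attaches the lipid, Wls carries the ligand to the cell surface, and Frizzled receptors take it up, either with Lrp5 or Lrp6 to stabilise beta-catenin or with Ror and Ryk receptors to steer cell polarity and movement. In the thymus, Wnt4 and other Wnt ligands have been tied to Foxn1, the transcription factor that thymic epithelium depends on, and fibroblasts around the organ are a known source of growth factors for that epithelium.

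The age series held 36208 cells with medians of 10005 to 14031 unique molecular identifiers (UMIs) per cell and library, the newborn set 21451 cells with medians of 2391 to 4686, and the bulk libraries 5785352 to 15852166 gene counts, except 1 gp38+CD26+ library at 4 weeks, which held 25702 and was left out. Per library, 15 to 60 cell barcodes of the age series and 9 to 17 of the newborn set also occurred in another library. The deposited labels name 19 nonepithelial subtypes: capsular fibroblasts (CapFb1a to CapFb4), medullary fibroblasts (MedFb1a to MedFb2b), pericytes (Pc), vascular smooth muscle (VSM), endothelium (EnA arterial, EnC capillary, EnVL venous or lymphatic), mesothelium (Mes), neural crest (NC) and proliferating cells (Pr). Mesothelial markers summed to 4187 ± 1830 CPM (counts scaled to 1000000 in all, mean ± SD, n = 7 libraries) in Mes and 11.5 ± 8.66 in CapFb4, and endothelial markers to 3723 ± 958 in EnC, so these labels carried their defining genes. One P0 library was rich in mesothelium, with 228 Mes cells against 7 in the other. Separate mice are stated for the newborn set. At E16.5, P0 and W4 the cells came from 2 thymi per age, but it is not stated that each library held 1 thymus. The 2 E16.5 libraries were the most alike (chi-square per degree of freedom 2.79, against 58.8 at P0 and 21.0 at W4). Whether they hold separate mice is not known, so p-values of the age series measure the spread between libraries. For the bulk libraries nothing is stated, so their p-values measure the spread between libraries. Serial numbers in the bulk titles are spaced alike within every population of an age, so sorts of different populations may share mice, and the tests between populations, which treat all libraries as separate, do not take this into account.

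The upstream sequences of Wnt10b and Wnt11 are shown. They are among 4 ligands highest in the same fibroblast subtype, CapFb4, and unlike the other two, Wnt2 and Wnt2b, they have a start site that RefSeq and the gene annotation place at the same base. RefSeq start sites on mm10 were matched for 8 of the 9 genes, with 11 windows of 250 bases ending just before a start site. Capitals mark matches to 5 short motifs on either strand: the TCF/LEF core CTTTGA, the GC box GGGCGG, the TATA box TATAAA, the AP-1 site TGACTCA and the E-box CACGTG. Both stretches are read 5′ to 3′ on the gene's strand, Wnt10b from chr15:98778151-98778400 (minus strand) and Wnt11 from chr7:98834862-98835111 (plus strand).
Wnt10b: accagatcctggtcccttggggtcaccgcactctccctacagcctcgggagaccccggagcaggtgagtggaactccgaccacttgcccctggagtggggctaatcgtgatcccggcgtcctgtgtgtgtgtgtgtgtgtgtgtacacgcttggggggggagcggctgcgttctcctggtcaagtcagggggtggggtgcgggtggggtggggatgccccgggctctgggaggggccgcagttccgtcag
Wnt11: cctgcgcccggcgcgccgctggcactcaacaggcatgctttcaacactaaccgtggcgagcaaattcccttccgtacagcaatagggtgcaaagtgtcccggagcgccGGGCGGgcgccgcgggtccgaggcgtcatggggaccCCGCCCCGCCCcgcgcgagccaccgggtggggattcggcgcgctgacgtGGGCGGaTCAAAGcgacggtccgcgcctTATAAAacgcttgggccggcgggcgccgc
The Wnt11 window shown, at the most upstream start site, held 1 TCF/LEF core on the other strand 50 to 45 bases before the start site, 4 GC boxes, 2 of which share a base, and 1 TATA box 29 to 24 bases before it. A second RefSeq start site of Wnt11 lies 3733 bases downstream, and its window (chr7:98838595-98838844) held none of the 5 motifs. In the Wnt10b window none of them occurred either, while the windows of Wnt2 and Wnt2b held GC boxes only, 1 and 3 of them. Of 32851 windows of the same length over all genes, 13.8% held the TCF/LEF core, 32.7% the GC box, 12.4% the TATA box, 4.46% the AP-1 site and 6.02% the E-box. The G and C content was 66.8% for Wnt10b and 70.8% for Wnt11, against a median of 52.4% over all windows.

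On mm10, Wnt2 (chr6:17988940-18030585) and Wnt5b (chr6:119432531-119544347) share chromosome 6. The others are Wnt2b (chr3:104945272-104961921), Wnt4 (chr4:137277489-137299726), Wnt5a (chr14:28504750-28527448), Wnt6 (chr1:74771892-74785322), Wnt9a (chr11:59306928-59333552), Wnt10b (chr15:98770712-98778150) and Wnt11 (chr7:98835112-98855195). The counts cover whole genes, so isoforms and start sites are not separated.

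Across the 19 nonepithelial subtypes, 4 of the 9 ligands (Wnt2, Wnt2b, Wnt10b and Wnt11) had their highest mean level in CapFb4, 2 (Wnt5a and Wnt5b) in CapFb3, 2 (Wnt4 and Wnt9a) in mesothelium and 1 (Wnt6) in neural crest. Levels are CPM of the UMIs summed over the cells of 1 subtype in 1 library, and a mean ± SD runs over libraries of all ages with at least 5 such cells. The subtypes had been clustered on the same counts, so levels between subtypes are described and not tested. By this measure no ligand peaked in endothelium, pericytes or medullary fibroblasts.

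**Figure D1:**
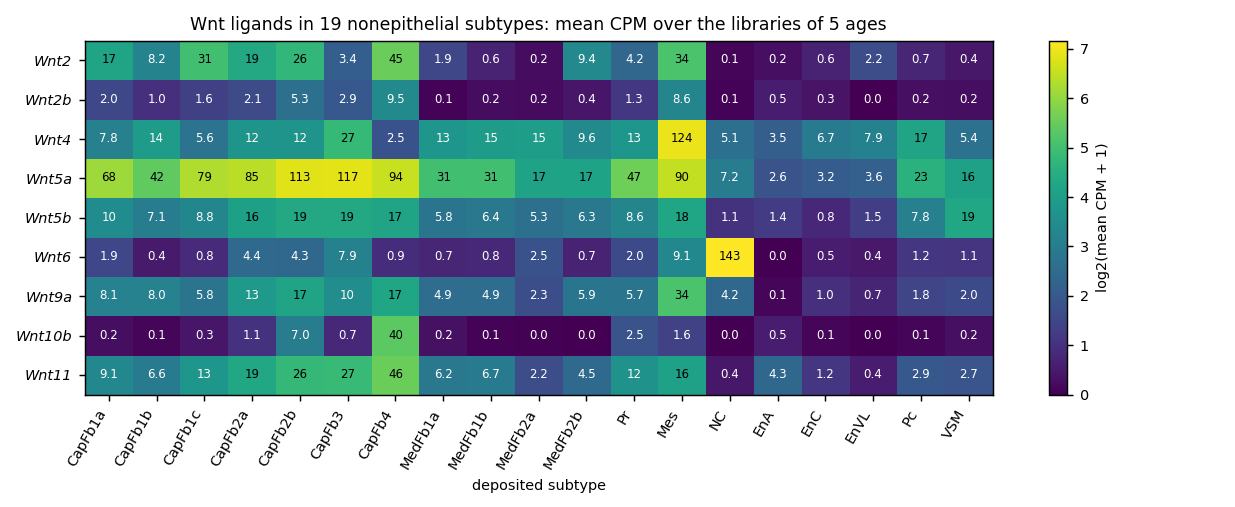
Mean level (CPM, colour on a log scale with the value printed in each cell) of the 9 Wnt ligands in the 19 nonepithelial subtypes of the age series, averaged over libraries with at least 5 cells of the subtype. Wnt10b stands at 40.0 CPM in CapFb4 and 7.04 in CapFb2b, while Wnt5a is spread over many fibroblast subtypes with 117 CPM in CapFb3 and 113.03 in CapFb2b.

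Wnt10b, a ligand known for holding back fat cell formation, was concentrated in CapFb4. Its level there was 40.0 ± 25.6 CPM (n = 8 libraries), followed by CapFb2b with 7.04 ± 4.89, and CapFb4 was first in 6 of 8 libraries. Of 1067 Wnt10b UMIs in the age series, 784 lay in CapFb4. Wnt10b was detected in 52.9% of CapFb4 cells and 7.42% of CapFb2b cells, against 1 of 2366 EnC cells and 1 of 4121 Pc cells. CapFb4 cells were deep, with a median of 17581 UMIs, and after every cell was thinned to 2000 UMIs the CapFb4 share was 9.62%. The part of free RNA in these shares was not tested.

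Wnt2, a ligand of lung and vessel development, was also led by CapFb4, at 45.5 ± 30.6 CPM (n = 8), but Mes (34.4 ± 20.2 CPM, n = 7) and CapFb1c lay within the spread and CapFb4 was first in only 4 of 8 libraries. Of CapFb4 cells, 39.4% had a Wnt2 UMI, and after thinning to 2000 UMIs the share was 8.74%, against 0.09% in EnC. Wnt11, a ligand that acts on cell movement and branching, stood at 46.5 ± 19.998 CPM in CapFb4 and 27.3 ± 5.97 in CapFb3, with CapFb4 above CapFb3 in 6 of 8 libraries. A Wnt11 UMI was found in 43.9% of CapFb4 cells, and after thinning in 7.69%, against 5.56% in CapFb3 and 0.13% in EnC. Wnt2b was the scarcest of the 9 with 728 UMIs in all. Its levels of 9.53 ± 5.97 CPM in CapFb4 and 8.55 ± 5.81 in Mes did not differ beyond their spread.

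Wnt5a, which signals mostly through Ror2 rather than beta-catenin, was the most widespread ligand, with 17254 UMIs in 8539 cells. CapFb3 held 117 ± 76.8 CPM and CapFb2b 113.03 ± 65.6, and a UMI was found in 62.9% of CapFb3, 62.2% of CapFb4 and 60.7% of CapFb2b cells. After thinning these shares were 19.4%, 14.4% and 18.4%, against 0.42% in EnC. The order of these subtypes is not settled, as CapFb3 was above CapFb2b in 5 of 8 libraries. Its close relative Wnt5b was lower and flatter, at 19.02 ± 9.60 CPM in CapFb3 and 18.9 ± 5.43 in CapFb2b. Its leading subtype became VSM when UMIs were pooled over libraries.

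Wnt4, known from kidney tubules and the ovary, was led by Mes with 123.98 ± 129 CPM (n = 7), and 48.4% of Mes cells had a UMI, beside 7.90% of EnC and 8.74% of Pc cells. After thinning the shares were 18.2%, 1.26% and 2.24%. Wnt9a, a ligand of joint formation, also peaked in Mes, at 33.97 ± 14.1 CPM, above CapFb4 (17.5 ± 10.1) in 5 of the 7 libraries that held both. Wnt6 was led by NC with 142.7 ± 126 CPM and reached 9.11 ± 12.3 in Mes. In NC its level differed sharply between libraries: 0.32 and 1.24 CPM at E12.5 and E13.5, which held 259 and 293 NC cells, against 68.3 and 76.6 at E16.5, 206 and 287 at P0 and 172.01 and 330 at W4, where a library held only 7 to 39 such cells.

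Genes with the most similar pattern over the 19 subtypes were sought among 9473 genes, by Pearson's r of log2(mean CPM + 1). Such an r is a description, since all genes share the same 19 points and libraries. Wnt2 was closest to Dpp4 (r = 0.929), which encodes the CD26 protein used to sort capsular fibroblasts, then to Igfbp6 (0.902) and Gabra3 (0.882). Wnt5a followed Ptprd (0.987), Gpc3 (0.986) and Osr1 (0.982). For Wnt10b the nearest were Bag1 (0.927), Akr1c18 (0.920) and Krtdap (0.904), and for Wnt11 they were Fgf18 (0.937), Dcaf12l1 (0.932) and Emilin2 (0.923). Krtdap (0.935) was also near Wnt2b, behind Smim20 (0.940) and ahead of Lgi3 (0.932). Wnt9a lay nearest to Nsmaf (0.944), Igfbp6 (0.941) and Mpp6 (0.939), and Wnt5b to Slc38a4 (0.934), Tgfb3 (0.933) and Tcea3 (0.931). Wnt6 was nearest to Paqr6 (0.931), Kcna1 (0.904) and E130114P18Rik (0.903). The weakest likeness was that of Wnt4, whose best matches were Pelp1 (0.843), Kiz (0.841) and Isoc1 (0.841).

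With age, the fibroblast ligands Wnt2 and Wnt5a rose from birth to 4 weeks in several capsular subtypes and Wnt11 rose in CapFb1b and in MedFb1a and MedFb1b under all alternatives, while Wnt4 counts fell in 9 of 16 subtypes, those of medullary fibroblasts among them. Over the 5 ages, 47 of 68 member tests in 11 subtypes passed (edgeR, quasi-likelihood F test, adjusted p at most 0.05 over all genes of a subtype) and 56.7% of all gene tests did. From P0 to W4, 41 of 96 tests in 17 subtypes passed, 27 upward and 14 downward, against 27.6% of all genes (13.7% upward and 13.9% downward). A further 57 of 153 possible tests had too few UMIs to be run, so these counts cover only the ligands that a subtype held. From E16.5 to P0, 24 of 96 passed, all upward, against 12.6% of all genes (6.63% upward). That count fell to 10 without E16.5 replicate 1 and to 13 without E16.5 replicate 2. The median log2 fold change over member tests was 0.66 from E16.5 to P0 and 0.01 from P0 to W4, and the medians over all genes of a subtype lay between 0 and 0.05 and between -0.08 and 0.01.

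**Figure D2:**
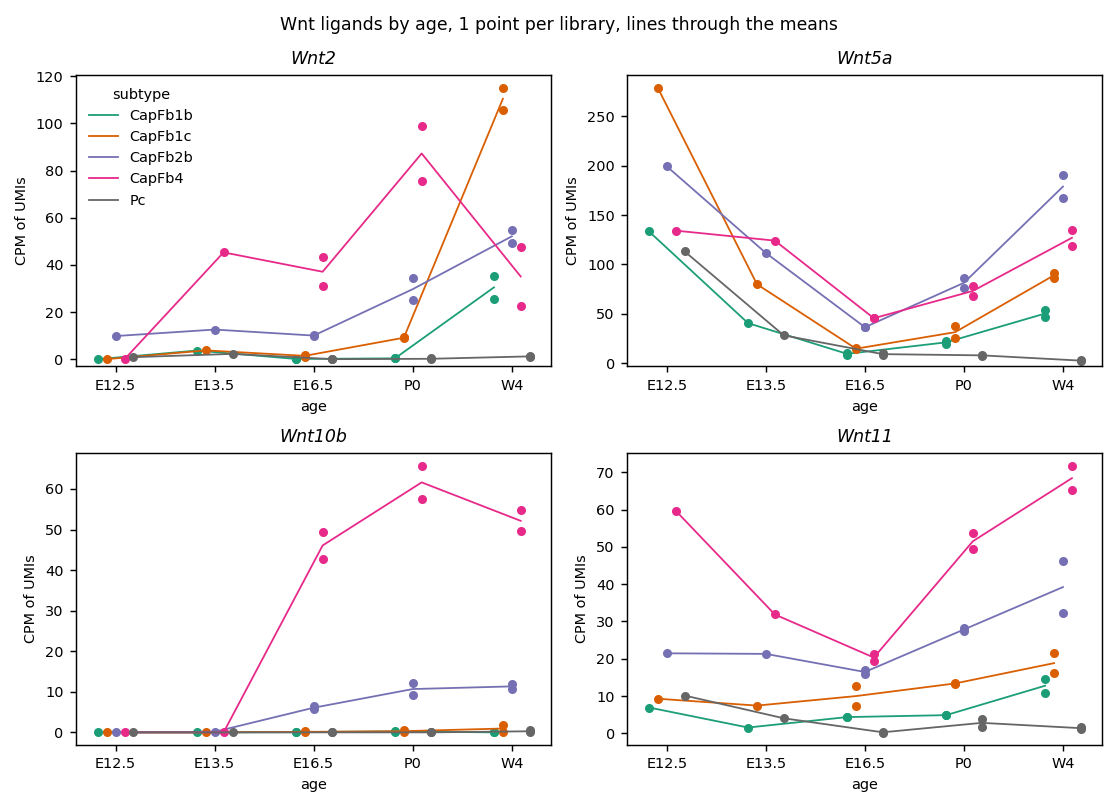
Level per library (CPM) of Wnt2, Wnt5a, Wnt10b and Wnt11 over the 5 ages in 4 capsular fibroblast subtypes and pericytes, with 1 point per library. Wnt2 in CapFb1b lies at or below 3.64 CPM up to P0 and at 25.5 and 35.4 CPM at W4, whereas Wnt5a in Pc falls from 113.1 CPM at E12.5 to 2.11 and 3.26 at W4.

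From P0 to W4 Wnt2 rose in 5 of 9 subtypes and fell in 1. In CapFb1b its level was 0 CPM at E12.5, 3.64 at E13.5, 0 and 0.18 at E16.5, 0.39 and 0.29 at P0, and 25.5 and 35.4 at W4. In CapFb1c it was 0, 3.72, 1.78 and 1.03, 9.34 and 8.84, and then 114.95 and 106 in the same order. Both W4 libraries lay above all younger libraries in each of these subtypes. No share of all genes is given for this or later separations of libraries in the age series. From P0 to W4, 44.4% of all genes passed in CapFb1b and 32% in CapFb1c. The rise of Wnt2 from P0 to W4 was 6.42 ± 0.42 (log2 fold change ± SE, adjusted p = 1.62e-07) in CapFb1b, 3.58 ± 0.17 (2.5e-10) in CapFb1c and 3.51 ± 0.33 (8.21e-07) in CapFb1a. It rose by 2.13 ± 0.37 (0.00291) in CapFb2a, a call lost without W4 replicate 2, and by 0.94 ± 0.17 (0.00124) in CapFb2b. In CapFb4 Wnt2 went the other way, with 30.999 and 43.1 CPM at E16.5, 75.5 and 98.9 at P0 and 22.6 and 47.5 at W4. There it rose from E16.5 to P0 (log2 fold change 1.23 ± 0.19, adjusted p = 4.71e-05) and fell from P0 to W4 (-1.12 ± 0.21, 0.000155). The difference between subtypes in the size of these age effects was not tested. Summed mesothelial markers were at most 5 CPM in CapFb1b and CapFb1c, and in CapFb4 they were 15.5 and 23.4 CPM at P0 and 22.04 and 12.47 at W4.

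Wnt5a was high at E12.5, low at E16.5 and higher again at W4 in most fibroblast subtypes, though in MedFb1b W4 stayed well below E12.5. In CapFb2b it measured 199 CPM at E12.5, 111.6 at E13.5, 36.6 and 36.4 at E16.5, 86.7 and 76.2 at P0, and 190 and 167.4 at W4. In MedFb1b the values were 102.7, 36.98, 8.95 and 9.29, 14.3 and 13.9, and 33.9 and 29.5. The 2 E16.5 libraries were the lowest of all in both subtypes. From E16.5 to P0 Wnt5a rose in 6 of 16 subtypes, such as CapFb1a (1.27 ± 0.15, adjusted p = 0.000101) and CapFb2b (1.17 ± 0.12, 0.000204). From P0 to W4 it rose in 10 of 16, among them CapFb3 (1.87 ± 0.18, 0.000461), CapFb1c (1.504 ± 0.16, 3.57e-06) and CapFb4 (0.87 ± 0.11, 2.07e-06). In pericytes, by contrast, Wnt5a dropped from 113.1 CPM at E12.5 and 28.3 at E13.5 to 10.0 and 8.44 at E16.5, 7.49 and 8.53 at P0, and 2.11 and 3.26 at W4. The fall from P0 to W4 in Pc was -1.81 ± 0.35 (adjusted p = 0.00207) and was lost without W4 replicate 1.

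Wnt11 rose from P0 to W4 in 6 of 13 subtypes and fell in none. The call held in all 11 alternatives in CapFb1b, MedFb1a and MedFb1b, and was lost in 4 of them in CapFb1a (without E16.5 replicate 1, P0 replicate 1 or W4 replicate 2, and with DESeq2) and in 6 in CapFb2b (without either E16.5 library, either P0 library or W4 replicate 1, and with DESeq2). In MedFb1b it stood at 3.53 and 3.51 CPM at P0 and 13.8 and 15.7 at W4 (log2 fold change 2.04 ± 0.26, adjusted p = 1.41e-05), and in MedFb1a at 1.90 and 4.27 against 15.5 and 13.4 (2.03 ± 0.50, 0.00477). In CapFb4 its level ran through 59.7, 31.9, 21.3 and 19.3, 49.3 and 53.7, and 71.6 and 65.2 CPM from E12.5 to W4, with the lowest values at E16.5. The E12.5 value came from only 6 CapFb4 cells. The step from E16.5 to P0 in CapFb4 was 1.36 ± 0.16 (1.2e-06), and the step to W4 was 0.50 ± 0.14 (0.00746), lost without P0 replicate 1, without W4 replicate 1 and with DESeq2.

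Wnt10b was not counted in CapFb4 before E16.5. It was at 0 CPM in the E12.5 library, which held 6 CapFb4 cells, and at 0 in the E13.5 library, which held 56, then at 49.3 and 42.8 at E16.5, 57.6 and 65.6 at P0 and 49.6 and 54.7 at W4. In CapFb2b the values were 0, 0.14, 5.75 and 6.41, 9.29 and 12.1, and 10.8 and 11.9 CPM. CapFb4 had too few cells at E12.5 for the test over the 5 ages. Wnt10b passed that test in the 2 subtypes where it could be run, CapFb2b (adjusted p = 7.52e-06) and Pr (0.0423, and 0.0877 without E16.5 replicate 1). From P0 to W4 it passed in 0 of 3 subtypes, and the rise from E16.5 to P0 in CapFb4 was small (0.43 ± 0.13, adjusted p = 0.0314) and was lost without an E16.5 library. Wnt2b followed a like course in CapFb4, at 0, 0, 13.3 and 13.6, 13.9 and 10.9, and 11.6 and 12.9 CPM. In CapFb1a it was 3.47 and 3.08 CPM at P0 and 0 in both W4 libraries (adjusted p = 0.00974, lost when a library was left out).

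Wnt4 counts fell from P0 to W4 in 9 of 16 subtypes and rose in 1. All 4 sorted nonepithelial bulk populations held Wnt4 at group means of 0 to 0.48 CPM at both ages, so the falls below are given as changes in the counts of these labels, and whether their cells express the gene was not tested. In MedFb1b it measured 17.1, 21.4, 17.9 and 15.4, 18.3 and 21.5, and 2.17 and 2.27 CPM from E12.5 to W4, and in EnC 7.87, 10.2, 6.04 and 8.64, 9.77 and 9.54, and 1.25 and 0.61. Every library up to P0 lay above both W4 libraries in these subtypes. The fall was -3.19 ± 0.25 (adjusted p = 1.22e-07) in MedFb1b, -4.14 ± 0.62 (3.88e-05) in MedFb1a, -3.53 ± 0.38 (8.13e-06) in MedFb2a, -3.39 ± 0.56 (0.00367) in EnC and -1.89 ± 0.28 (0.000309) in Pc. Markers of epithelium, a rich source of Wnt4 in the newborn data, moved the other way: their sum was 7.1 and 3.0 CPM at P0 and 16.6 and 12.49 at W4 in MedFb1b, and 9.1 and 3.4 against 43.01 and 27.6 in EnC. The part of epithelial RNA in these Wnt4 levels was not tested. In CapFb2b Wnt4 instead rose, from 12.4 and 4.15 CPM at P0 to 24.3 and 37.7 at W4 (1.97 ± 0.35, 0.00139). In Mes, with too few cells for the test, it was 79.004 and 88.5 CPM at P0 and 290 and 325 at W4.

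Wnt5b passed over the 5 ages in 5 of 9 subtypes (CapFb1a, CapFb1b, CapFb2a, Pc and VSM). From E16.5 to P0 it rose in 3 of 13, as in CapFb1a from 4.11 and 3.32 to 15.6 and 9.99 CPM (1.71 ± 0.33, adjusted p = 0.00486), a call lost without either E16.5 library and with DESeq2. From P0 to W4 it rose in CapFb1b (1.06 ± 0.29, 0.0102) and fell in Pc (-1.04 ± 0.32, 0.0256), both lost without W4 replicate 1 and with DESeq2 and the second also without W4 replicate 2, and it fell in VSM. In VSM it was 7.48, 19.7, 30.1 and 27.4, 26.1 and 22.4, and 5.67 and 9.32 CPM from E12.5 to W4 (-1.73 ± 0.25, 0.00259 from P0 to W4). Both W4 libraries were below those of E16.5 and P0. Wnt9a rose from P0 to W4 in 3 of 13, most firmly in CapFb2b, from 17.5 and 13.95 to 33.5 and 33.2 CPM (1.18 ± 0.18, adjusted p = 0.000472), and in 0 of 13 from E16.5 to P0. Wnt6 rose in MedFb2a from 0.57 and 1.12 to 7.52 and 4.89 CPM (2.70 ± 0.50, 0.000747). Epithelial markers rose there as well, from 8.8 and 4.9 to 16.3 and 10.48 CPM, and their part in the Wnt6 value was not tested.

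**Figure D3:**
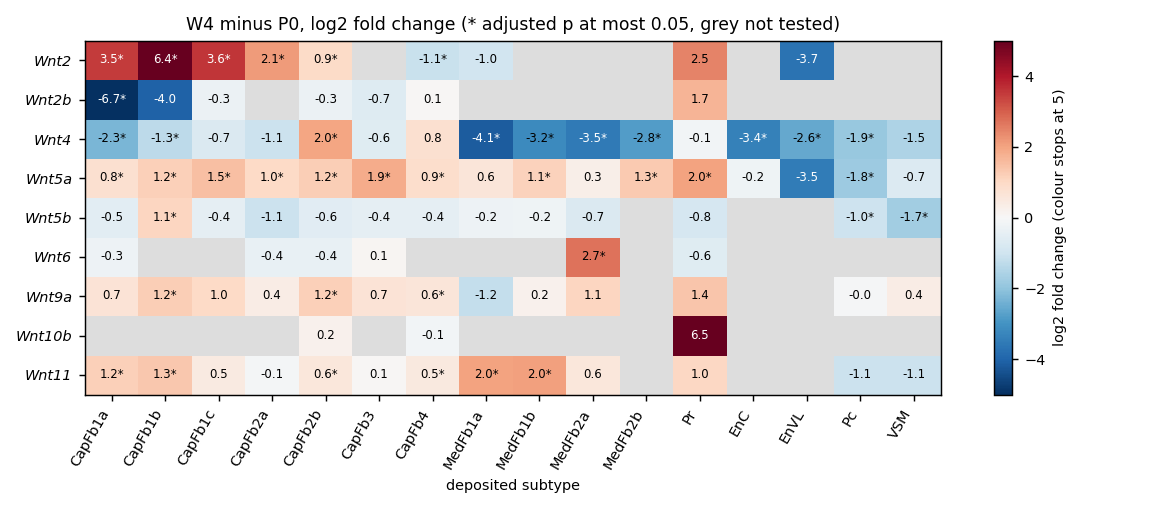
Log2 fold change from P0 to W4 (colour, stopping at 5) of the 9 ligands in each subtype tested, edgeR quasi-likelihood; an asterisk marks an adjusted p of at most 0.05 and grey a gene too low or a subtype too small to test. The Wnt4 row is mostly blue, with -4.14 in MedFb1a, and the Wnt2 row red in CapFb1a to CapFb2b but blue (-1.12) in CapFb4.

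The sorted bulk populations gave a second view, in which the gp38+CD26+ gate, located in the capsule, had the highest mean of the 4 nonepithelial populations for Wnt2, Wnt5a, Wnt10b and Wnt11 at both ages. In bulk samples fewer cells of a type and less RNA per cell cannot be told apart. Each population was set against the mean of the fitted log2 levels of the other 3, in which a population near 0 weighs as much as the others, so these folds exceed those between the mean CPM. At P0, gp38+CD26+ cells were higher for Wnt5a (log2 fold change 2.94 ± 0.73, adjusted p = 0.00217), at 22.1 CPM against 10.96 in gp38+CD26-, 10.53 in Ly51+gp38- and 0.27 in CD31+ cells. They were also higher for Wnt11 (3.54 ± 0.89, 0.00236), at 15.5 against 6.54, 0.83 and 0.57, and for Wnt2 (adjusted p = 7.78e-05), at 22.6 against 4.12, 1.67 and 0.03. No fold is given for Wnt2, since CD31+ cells held 2 counts in all. At 4 weeks they were higher for Wnt9a (4.67 ± 1.07, 0.00061), at 20.5 CPM against 7.86, 0.06 and 1.17, and at P0 as well (adjusted p = 0.00221, with CD31+ cells at 0). The gp38+CD26- gate passed the same test for Wnt9a at P0 (0.00515), for Wnt6 at both ages (0.000295 and 3.76e-05) and at 4 weeks for Wnt2 (0.0152), Wnt5a (0.00135) and Wnt11 (0.0101). Wnt6 in that gate was at 0 in 4 of 6 libraries at P0 (highest 9.99 CPM) and averaged 4.71 ± 4.10 CPM at 4 weeks. In gp38+CD26+ cells at 4 weeks, Wnt2, Wnt2b, Wnt5a and Wnt11 passed the same test (adjusted p = 2.61e-08, 2.83e-06, 9.01e-10 and 5.81e-08), with no fold given because 1 of the other populations was at 0. Wnt2 then averaged 126 ± 38.0 CPM in this gate, 10.2 in gp38+CD26-, 0.53 in Ly51+gp38- and 0 in CD31+ cells. Over the 8 such contrasts 27 of 72 member tests passed, 18 upward and 9 downward, against 18.8% of all genes (12.1% upward and 6.72% downward).

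Among the 4 nonepithelial gates Wnt10b was counted in this gate alone. It stood in the gp38+CD26+ libraries at 11.1, 3.36, 4.64, 0, 1.06 and 6.17 CPM at P0 and at 15.1, 7.68, 25.4, 32.6 and 18.4 at 4 weeks. In gp38+CD26-, CD31+ and Ly51+gp38- cells all libraries of both ages were at 0. Against 3 counts over the gp38+CD26- group, the gate with CD26 was at least 106-fold higher at P0 and at least 506-fold higher at 4 weeks.

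Between the CD26+ and CD26- gates the per-library values of Wnt2, Wnt5a and Wnt11 did not overlap at 4 weeks. Wnt2 was at 176, 103.1, 106, 87.6 and 154.9 CPM in gp38+CD26+ and at 17.1, 1.80, 0, 14.9, 8.22 and 19.01 in gp38+CD26- cells. For Wnt5a the values were 89.6, 127.2, 123.9, 84.7 and 100.6 against 18.3, 15.2, 12.6, 11.7, 4.11 and 41.4, and for Wnt11 36.3, 49.9, 49.2, 52.5 and 82.4 against 4.22, 8.87, 3.57, 13.8, 8.38 and 3.67. Each gave p = 0.00433 in a two-sided exact permutation test of log2(CPM + 1), 1 of 95 such tests, and the smallest that 5 against 6 libraries allow. All libraries of the first gate were higher for 5.81% of genes at 4 weeks and 1.91% at P0. Summed mesothelial markers differed between the gates too, at 4156 CPM (732 to 6579) against 19.6 (0 to 62.4) at 4 weeks and 144.4 against 75.8 at P0, and their part in these differences was not tested. At P0 this held for Wnt2 (22.6 ± 8.47 against 4.12 ± 4.53 CPM, exact permutation p = 0.00216), while Wnt5a (22.1 ± 6.005 against 10.96 ± 2.90, exact permutation p = 0.00433) overlapped. In the edgeR fit over all populations 3 of 18 tests between the gates passed (5.12% of all genes), Wnt10b upward at both ages and Wnt6 downward at P0, each against a group at 0. For Wnt6 the gp38+CD26- gate was itself at 0 in 4 of 6 libraries, the highest being 9.99 CPM. The exact permutation test did not pass there (p = 0.455). Fitted on the 2 gates alone, a choice made after seeing the data, 6 of 8 ligands tested passed at 4 weeks (14% of all genes) and 0 of 6 at P0 (3.35% of all genes, with Wnt5a at adjusted p = 0.0909 and Wnt2 at 0.22). Those of 4 weeks included Wnt11 (2.998 ± 0.39, adjusted p = 0.000202), Wnt5a (2.68 ± 0.43, 0.000941) and Wnt2 (3.71 ± 0.76, 0.00514).

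Within gp38+CD26+ cells 4 of the 9 ligands (Wnt2, Wnt5a, Wnt10b and Wnt11) were higher at 4 weeks than at P0 by the exact permutation test, adjusted over the 95 tests. For Wnt2 the P0 libraries gave 27.0, 14.4, 15.0, 34.5, 16.3 and 28.5 CPM, for Wnt5a 14.1, 19.4, 32.1, 20.2, 24.4 and 22.5, and for Wnt11 17.3, 20.3, 21.7, 11.5, 6.27 and 15.6, all below the 4 week values above (exact permutation p = 0.00433 each). Such a separation upward, seen in 3 of the 9 ligands, held for 6.4% of genes, and no share of all genes is given for the adjusted test. Wnt10b overlapped between the ages (exact permutation p = 0.00866, adjusted 0.0411). Wnt2b (2.81 ± 1.71 CPM at P0 and 19.4 ± 11.8 at 4 weeks) missed the adjusted threshold (exact permutation p = 0.0303, adjusted 0.0929), as did Wnt5b (0.0606 before adjustment), Wnt6 and Wnt9a (both 0.364) and Wnt4 (0.623). In the edgeR fit over all 14 groups only Wnt6 passed in this gate (adjusted p = 0.00707), with no fold given because all P0 libraries were at 0. It rested on 8.57 and 1.28 CPM in replicates 1 and 3, the other 3 being at 0, and was lost without replicate 1. Wnt2 did not pass there (2.62 ± 1.40, adjusted p = 0.26), and over the 6 populations 5 of 54 age tests did (9.85% of all genes), each in a group at or near 0. Fitted on P0 and 4 week libraries of this gate alone, Wnt2 (2.56 ± 0.30, 0.000122), Wnt5a (2.35 ± 0.23, 2.92e-05), Wnt11 (1.92 ± 0.33, 0.00201) and Wnt2b (2.90 ± 0.85, 0.0405) rose, where 13.2% of genes passed. The age effect did not pass as a difference between the CD26+ and CD26- gates for any of the 9 ligands (0 of 9 in edgeR against 3.39% of all genes, 0 with DESeq2, and 2 at an unadjusted p under 0.05). Mesothelial markers summed to 144.4 CPM (0 to 530) at P0 and 4156 (732 to 6579) at 4 weeks in gp38+CD26+ cells. The library lowest in these markers, replicate 1, had the highest Wnt2 (176 CPM) of the 5 but the lowest Wnt11 (36.3) and Wnt5b (4.10). Wnt4, at 290 and 325 CPM in single Mes cells of W4, reached at most 1.71 CPM in this gate. Its group means lay at 0 to 0.48 CPM in all 4 nonepithelial gates. The part of mesothelial cells in the age difference was not tested.

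**Figure D4:**
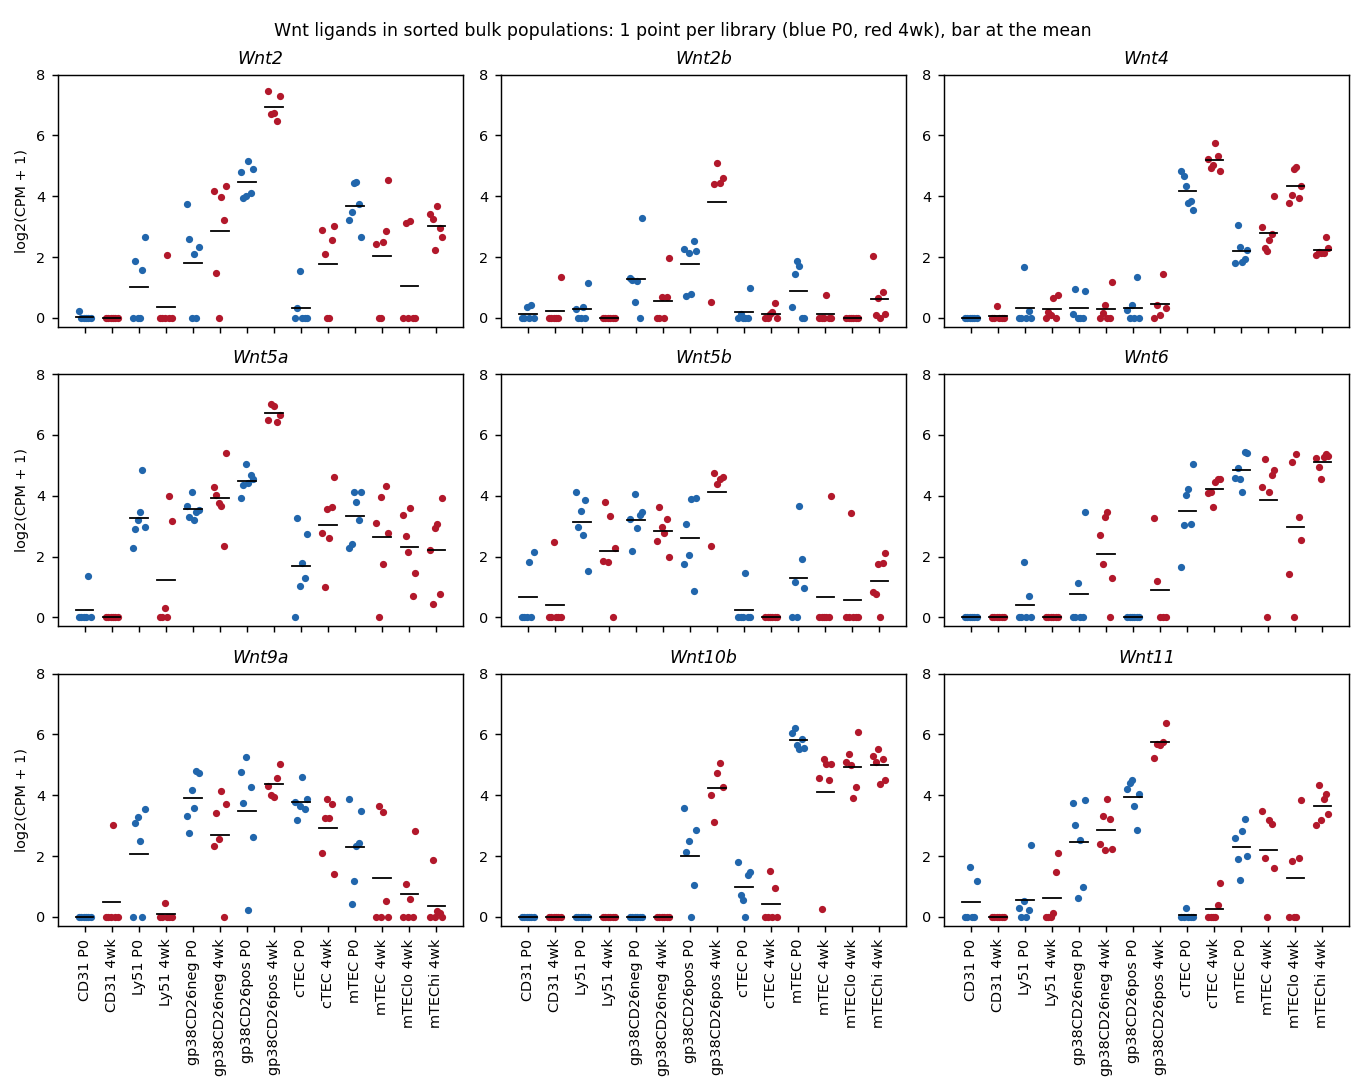
Level per bulk library (log2(CPM + 1)) of the 9 ligands in the 8 sorted populations, P0 in blue and 4 weeks in red, 1 point per library and a bar at the mean of the log values; gp38+CD26+ at 4 weeks has 5 libraries, other groups 6. Wnt2, Wnt5a and Wnt11 are highest in gp38+CD26+ cells of 4 weeks (means 126, 105 and 54.1 CPM), Wnt4 in cTEC (36.1 CPM at 4 weeks) and Wnt10b in mTEC (55.8 CPM at P0).

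Per length, which allows ligands to be compared with each other, Wnt2 led in gp38+CD26+ cells at 4 weeks with 55.7 ± 16.8 RPKM (CPM divided by exon length in kilobases), ahead of Wnt5a (13.4 ± 2.49) and Wnt11 (13.1 ± 4.12). On the same scale mTEC at P0 held Wnt10b at 16.4 and Wnt6 at 13.2 RPKM, and cTEC at 4 weeks held Wnt4 at 8.61 and Wnt6 at 8.28.

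Wnt4, Wnt6 and Wnt10b were higher in cTEC and mTEC together than in the nonepithelial populations at P0 and 4 weeks, by means of fitted log2 levels. Of these, Wnt10b was low in cTEC (1.17 CPM at P0 and 0.46 at 4 weeks). It was also a ligand of the mesenchyme, with 19.8 ± 9.55 CPM in gp38+CD26+ cells at 4 weeks beside 23.8 ± 12.7 in mTEC. In such means a population near 0 weighs as much as the others. Wnt5a also passed upward at 4 weeks, a call lost in 5 of 11 alternatives. Its levels were 9.62 CPM in cTEC and 8.18 in mTEC, against 105 in gp38+CD26+, 17.2 in gp38+CD26-, 3.84 in Ly51+gp38- and 0 in CD31+ cells. For Wnt4 the difference between means of fitted log2 levels at 4 weeks was 5.97 ± 0.72 (adjusted p = 1.29e-10). Elsewhere a nonepithelial population was at 0 and no fold is given, with adjusted p = 2.23e-10 for Wnt4 at P0, 1.89e-09 and 4.56e-08 for Wnt6 at P0 and 4 weeks, and 5.27e-12 and 1.19e-08 for Wnt10b. Wnt6 averaged 28.9 ± 10.53 CPM in mTEC and 13.6 ± 10.7 in cTEC at P0 and was at 0 in all CD31+ libraries. Over the 5 epithelial contrasts 17 of 45 member tests passed, 9 upward and 8 downward, against 33.2% of all genes (16.7% upward).

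Within the epithelium Wnt4 was higher in cTEC and Wnt10b in mTEC. Wnt4 measured 27.3, 24.5, 19.3, 12.8, 13.2 and 10.6 CPM in cTEC at P0 and 36.1, 29.6, 31.3, 53.3, 39.1 and 27.2 at 4 weeks, against 2.47, 7.22, 3.98, 2.60, 2.80 and 3.66 and then 6.88, 3.94, 3.63, 4.84, 5.70 and 15.1 in mTEC. At each age all cTEC libraries lay above all mTEC libraries (exact permutation p = 0.00216), as they did for 10.6% of genes at P0 and 9.19% at 4 weeks. Fitted on these groups alone the difference was 2.13 ± 0.38 at P0 (adjusted p = 0.000322, 43.5% of genes passing) and 2.32 ± 0.43 at 4 weeks (0.00114, 25.2%), while in the fit over all populations it did not pass at P0 (2.10 ± 1.10, 0.14) or at 4 weeks (2.26, 0.11). Between mTEC subsets, Wnt4 was lower in mTEChi (3.15, 3.46, 3.35, 3.39, 5.34 and 3.87 CPM) than in mTEClo (12.8, 15.6, 28.6, 30.02, 14.3 and 19.3), with no overlap (exact permutation p = 0.00216, lower for 5.11% of genes), though in the fit over all populations this did not pass (-2.16 ± 1.10, adjusted p = 0.177). In cTEC, Wnt4 was higher at 4 weeks (36.1 ± 9.48 CPM) than at P0 (18.0 ± 6.87), with a small overlap (exact permutation p = 0.00433), and again it did not pass in the fit over all populations (1.12 ± 1.07, adjusted p = 0.681). Other marker sums rose in the cTEC sorts too: mesothelial markers summed to 3.37 CPM (0.12 to 6.28) at P0 and 724 (25.7 to 2820) at 4 weeks, and fibroblast markers to 65.7 (12.6 to 126) and 843 (340 to 1791). The mesothelial sum was 980 CPM in mTEC at P0 and 663 at 4 weeks, so in epithelial sorts it is not taken to mark mesothelium alone. The part of other cells in the Wnt4 difference was not tested.

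Wnt10b in mTEC was 65.5, 73.2, 48.9, 44.6, 56.7 and 45.7 CPM at P0 and 22.9, 0.18, 35.1, 31.4, 21.5 and 31.7 at 4 weeks, lower in every library of the older age (exact permutation p = 0.00216, true of 3.66% of genes). In edgeR fitted on these groups alone the difference did not pass (-1.23 ± 0.63, adjusted p = 0.342). In cTEC it was at most 2.52 CPM. The difference between cTEC and mTEC was -5.68 ± 1.11 at P0 (log2, adjusted p = 0.000112) and -5.82 ± 1.12 at 4 weeks (0.000111). Wnt2 at P0 was lower in cTEC too (-5.34 ± 1.59, 0.00706), with 0, 0.25, 1.89, 0, 0 and 0 CPM against 8.33, 10.3, 20.8, 21.3, 12.4 and 5.37 in mTEC. Wnt11 was near 0 in cTEC and low in mTEC (4.40 ± 2.58 CPM at P0). For none of the 9 did the age effect pass as a difference between cTEC and mTEC in edgeR (0 of 9 against 2.86% of all genes, 1 with DESeq2, and 2 at an unadjusted p under 0.05).

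In the newborn single cells of WT littermates, cortical labels were the main holders of Wnt4. Perinatal cTEC (PcTEC) gave 332, 425 and 386 CPM and mature cTEC (McTEC) 298, 447 and 416 in the 3 libraries, followed by proliferating (PrTEC, 218 ± 40.0) and intertypical TEC (ItTEC, 205 ± 63.0), and mature mTEC (MmTEC) with 162, 66.6 and 96.5. PcTEC and McTEC did not differ beyond their spread. A Wnt4 UMI was found in 72.7% of PcTEC cells (49.8% after thinning to 2000 UMIs, median depth 4659) and 15.3% of EnC cells (11.7% after thinning, median depth 2708.5). EnC cells also showed Epcam in 11.1% and Psmb11 in 7.59%, both epithelial genes. The Wnt4 share of 15.3% lay above both. The part of epithelial RNA in it was not tested, so the share is not read as expression, nor as its absence. The same caution holds for pericytes, where 14.3% of cells had a Wnt4 UMI and 11.2% an Epcam UMI.

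In the age series at P0, Wnt4 in the fibroblast subtypes, EnC and Pc ran from 1.49 CPM in CapFb4 to 104 in CapFb3, the latter in the library rich in mesothelium, whereas in sorted bulk nonepithelial populations its group means were 0 to 0.48 CPM at both ages. The methods differ in more than purity, and no test links them. Among the epithelial labels of the newborn set MmTEC led for Wnt10b, at 52.1, 34.4 and 27.2 CPM, and for Wnt6, at 72.97, 6.44 and 61.1. For Wnt6 the lead was not kept by the share of cells with a UMI after thinning, which was 2.41% in MmTEC and 2.55% in PcTEC. Wnt10b was found in 12.55% of MmTEC cells, in 0.82% of PcTEC and in 0 of 606 EnC cells, which at this depth allows a share of cells with a UMI, not of cells that express the gene, of up to 0.495%. CapFb4 of the newborns again carried Wnt10b (32.9, 27.5 and 41.7 CPM), within the spread of MmTEC, and led for Wnt2 (71.3, 38.5 and 45.1). Wnt6 led in NC (141 ± 78.8 CPM, n = 3, 30 cells) and Wnt5b in VSM (19.6 ± 5.53 CPM, n = 3, 538 cells). Wnt5a led in CapFb3 (75.7 ± 9.01 CPM) and Wnt9a in Mes (133.7 ± 96.8 CPM), each over 2 libraries, with 36 and 15 cells. Wnt11 was also highest in CapFb3, at 23.1 and 164 CPM in the 2 libraries.

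**Figure D5:**
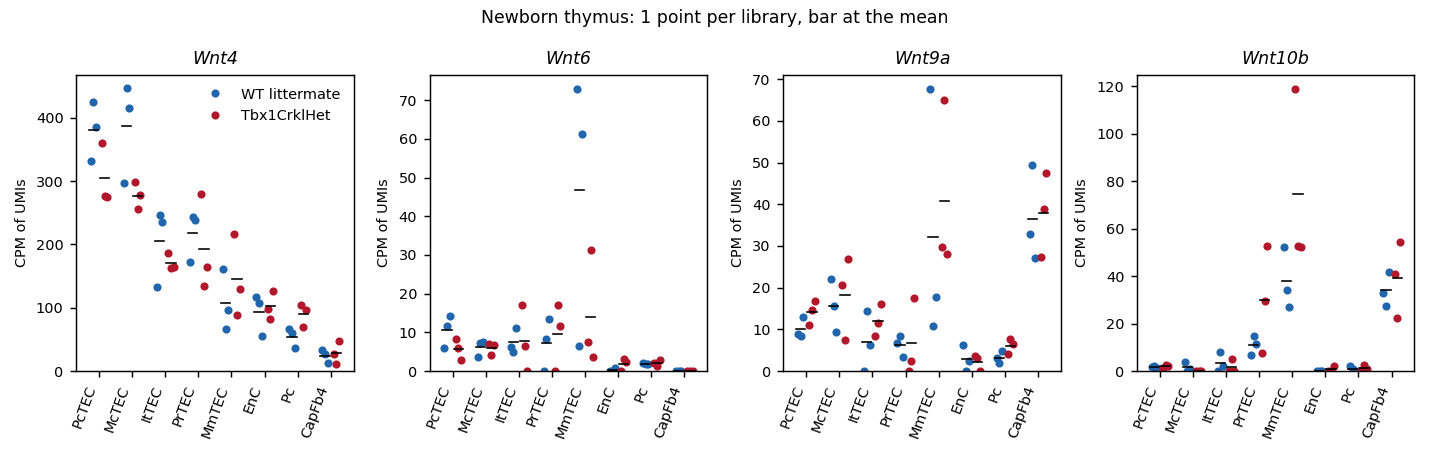
Level per newborn library (CPM) of Wnt4, Wnt6, Wnt9a and Wnt10b in 8 labels, WT littermates beside Tbx1+/-Crkl+/- mice, 1 point per library. Wnt4 in PcTEC lies between 332 and 425 CPM in WT and between 276 and 361 in heterozygous mice, and the 2 genotypes overlap there.

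Between Tbx1+/-Crkl+/- mice and WT littermates no ligand passed the test where it could be run. Wnt4 was tested in 20 of 22 fits, the others in 1 to 5 each and Wnt2b in none. The targeted genes themselves were checked first. Tbx1, very low in newborn stroma, gave 13, 6 and 19 UMIs in WT and 0, 0 and 8 in heterozygous libraries. Crkl was at 23.0, 25.1 and 18.4 CPM in WT and 24.1, 23.6 and 26.9 in heterozygous libraries, so the counts did not separate the genotypes by Crkl. In 22 fits over labels and classes, 0 of 39 member tests passed in edgeR, where 0.0429% of all genes did, and 0 in DESeq2. An unadjusted p under 0.05 was found in 10. No share of all genes is given beside this count, so it is not read as a change with genotype. The classes hold the cells of their labels, so the 39 tests overlap. Wnt4 made up 20 of them, some in labels such as EnC and Pc where its counts are not read as expression. Of 198 possible tests, 159 were not run for lack of UMIs. Heterozygous libraries were also shallower, with medians of 2391 to 2551 UMIs per cell against 2577 to 4686.

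The smallest p belonged to Wnt5b in mural cells, at 9.14, 12.9 and 7.60 CPM in WT and 4.68, 3.02 and 3.38 in heterozygous mice, a log2 difference of -1.49 ± 0.44 (adjusted p = 0.257). The 3 heterozygous libraries lay below the 3 WT libraries. This restates the values behind a p picked as the smallest, and no share of all genes is given for it. Wnt4 in Pc, where its counts are not read as expression, was at 66.1, 59.8 and 36.5 CPM in WT and 105, 69.1 and 96.9 in heterozygous mice (0.72, adjusted p = 0.465). In PcTEC it was at 361, 277 and 276 in the heterozygous libraries against the WT values above. Wnt10b in MmTEC was 119.1, 52.9 and 52.5 CPM in heterozygous mice against 52.1, 34.4 and 27.2 (0.90, adjusted p = 0.49).

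Genes that make, receive or temper Wnt signals were followed over the same ages. They were grouped by function into secretion (Porcn, Wls), receptors (Frizzled, Lrp5, Lrp6, Ror, Ryk, Ptk7), modulators (the Sfrp, Dkk and Rspo families, Wif1, Notum), transduction (such as Ctnnb1 and the Tcf factors) and feedback targets (such as Axin2). From E16.5 to P0, 14 of 31 secretion tests over subtypes rose and none fell (median log2 fold change 0.82), with Wls up in 12 of 17 subtypes. Feedback targets rose in 28 of 88 tests (0.60) and modulators in 32 of 150, with 6 falling (0.51). Receptors passed in 32 of 228 (26 up and 6 down), close to the share of all genes. From P0 to W4, receptors moved both ways (48 up and 50 down of 228, median -0.13), as did modulators (36 up and 37 down of 150, median -0.45), while targets rose in 25 and fell in 7 of 88 (0.34) and secretion genes rose in 8 and fell in 2 of 31. Transduction genes changed in 12 of 201 and 43 of 201 tests. These shares stand beside 12.6% and 27.6% of all genes.

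Single genes, named for their small adjusted p, need not move as their list did. Ptk7, a co-receptor of polarity signalling, fell from P0 to W4 in 15 of 17 subtypes, as in CapFb4 (-1.87 ± 0.32, adjusted p = 8.4e-05). Axin2, a feedback target of beta-catenin, rose in 9 of 15, with 1.64 ± 0.20 (6.3e-07) in CapFb4, 1.30 ± 0.28 in CapFb1c and 1.14 ± 0.23 in CapFb1b. The secreted Wnt binder Sfrp4 rose in 7 of 10, by 1.95 ± 0.15 in CapFb4 and 4.12 ± 0.50 in CapFb1b, and its relative Sfrp2 by 1.78 ± 0.11 and 2.73 ± 0.23. Dkk3 fell in CapFb4 by 1.77 on the log2 scale. Lgr5, a receptor for R-spondins, rose there by 2.48 ± 0.39. In the bulk epithelium at P0, 11 of 14 modulators were lower in cTEC than in mTEC and none higher (26.2% of all genes lower), among them Dkk3 (-5.25 ± 1.09, 0.00014), and Wls was higher in cTEC (1.48 ± 0.30, 7.4e-05). In the genotype comparison none of these lists had a gene past the threshold.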

How the data were processed

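UMI counts per cell (single-cell sets) and read counts per gene (bulk) were used as the authors deposited them, with the authors' cell labels. The study processed single cells with Cell Ranger 3.1.0, kept cells by genes detected and mitochondrial share (the shallowest cell of a library held 999 to 1021 genes in the age series and 876 to 901 in the newborn set), kept singlets called by DoubletFinder, removed contaminant clusters and transferred labels with Seurat. The submitters' processing notes also name STAR 2.5.3a, HTSeq, mm10 and GRCh38, without roles, and whether bulk counting used strand is not given in the sources used here. No doublet caller was run again. Bulk identifiers were matched to symbols for 37607 of 39179, and of identifiers sharing a symbol the first was kept. Reads assigned to no gene (7.81% to 29.4% of a library) stayed out of library sizes. Titles of bulk samples carry a prefix (DFCK or TXCK, 3 of each per group) whose meaning is not given, and it entered only as a term in an alternative fit.

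Counts were summed per library and label. Levels are CPM with at least 5 cells, shares carry exact Clopper-Pearson 95% intervals, and thinning was to 2000 UMIs. Limits for a count of 0 used 3 counts, and intervals and limits cover counting error only. Tests used edgeR 4.0.16 (quasi-likelihood, filterByExpr, TMM, Benjamini-Hochberg over all genes of a fit, threshold 0.05, at least 20 cells in each library) in R 4.3.3. SE is the log2 fold change divided by the root of F. One bulk library under 1000000 gene counts was dropped, and 1 fit held the other 83. Two-sided exact permutation tests used scipy 1.17.1 on log2(CPM + 1). RPKM was computed from the counts and summed exon length. Alternatives were DESeq2 1.42.0, other size factors, no filter on low counts, 10 cells, 1 library left out, replicate blocks and, added later, a fit on only the groups compared. Left out 1 at a time were the libraries of E16.5, P0 and W4 in the age series and all newborn libraries. In bulk this was done only for gp38+CD26+ at 4 weeks, so bulk contrasts without this group were not checked for the weight of a single library. The fitting was tested on simulated data. No pair of libraries agreed within sampling noise (lowest chi-square per degree of freedom 2.79).

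The 9 ligands, gene lists and tests were chosen with earlier results of these data known. The 9 ligands are named whatever their values. Of each other list, up to 3 genes per contrast are named, those with the smallest adjusted p under 0.05. Likeness names the 3 genes with the highest r among those with a mean of at least 20 CPM in some subtype.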

Additional observations from a re-analysis of the deposited data

Results flagged for a closer look

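Of 67 combinations of a ligand and a bulk group with a median of at least 1 CPM, 9 held a library that stood apart from the others by Dixon's 95% criterion, where chance flags about 1 in 20. Replicate 6 of mTEC at 4 weeks held Wnt2 at 22.4 CPM (others 0 to 6.21) and Wnt4 at 15.1 CPM (others 3.63 to 6.88). Wnt4 also had a high library in mTEC at P0, replicate 2 (7.22 CPM, others 2.47 to 3.98), and in mTEChi, replicate 5 (5.34 CPM, others 3.15 to 3.87), and these libraries stayed below every cTEC library of their age (mTEC) or every mTEClo library (mTEChi). In mTEClo, replicate 6 held Wnt11 at 13.3 CPM against 0 to 2.86. In mTEC at P0, replicate 4 held Wnt5b at 11.7 CPM against 0 to 2.80.

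Among nonepithelial groups, Wnt5a was 27.6 CPM in replicate 5 of Ly51+gp38- cells at P0 (others 3.84 to 10.2), and Wnt2b was 8.84 CPM in replicate 6 of gp38+CD26- cells at P0 (others 0 to 1.498). Wnt5b was lowest, at 4.10 CPM, in replicate 1 of gp38+CD26+ cells at 4 weeks (others 19.9 to 25.96), the library of these 5 that was also lowest in summed mesothelial markers (732 CPM) and highest in Wnt2 (176 CPM). The part of mesothelial cells in the Wnt5b value was not tested.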

How the results depend on the processing

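Over 164 single calls, 1638 of 1782 values under other settings kept direction and threshold, the others lost the threshold and none reversed. For bulk calls these settings left out only libraries of gp38+CD26+ at 4 weeks, also where the contrast did not hold this group. The 24 calls from E16.5 to P0 became 37 with no filter on low counts, 13 with DESeq2 and 10 to 30 with 1 library left out, with 10 without E16.5 replicate 1 and 13 without E16.5 replicate 2. The 3 calls between CD26+ and CD26- gates became 5 with DESeq2 and 6 in the fit on only the groups compared, which was chosen after seeing the data. That fit kept 1 of the 3. For bulk P0 to 4 weeks it also gave 5 calls but kept 0 of the 5 main ones. The 0 calls for a different age effect in cTEC and mTEC became 1 with DESeq2. Leaving out 1 library gave 36 to 54 calls over the 5 ages and 33 to 46 from P0 to W4, within 1.5 times the main counts. With the replicate block the calls were 48 over the 5 ages (47 without it), 24 from E16.5 to P0, 42 from P0 to W4 (41 without it) and 0 for genotype. Of 18 leading labels (9 ligands among the nonepithelial subtypes of the age series and among the epithelial labels of the newborn set), 16 were kept with pooled UMIs, 17 with at least 20 cells and 13 by thinned share, and Wnt5b in the age series led in VSM with pooled UMIs and in Mes with at least 20 cells. The leading nonepithelial labels of the newborn set were not recomputed. The cause of these changes was not tested. Deviations of same-numbered libraries correlated at r from -0.13 to 0.00 in the age series and from -0.372 to 0.178 in the genotype set, so the numbers are not read as pairs. With the title prefix as a term the bulk calls stayed within 1.5 times. Newborn depth (median 2391 to 4686 UMIs per cell) limits the genotype comparison, and the single libraries of the earliest ages are assumed to vary like those of the other ages.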

Other observations

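Of 10 Wnt genes outside the 9, 8 had their highest bulk group mean in epithelium. No share of all genes is given for this count, so it is not read as particular to Wnt genes. Libraries of mTEC at P0 detected 18286 to 20407 genes, those of gp38+CD26+ cells at P0 12033 to 15092. Wnt10a, a close relative of Wnt10b, averaged 202 ± 50.1 CPM (SD, n = 6) in mTEC and 2.58 ± 2.33 in cTEC at P0 and gave 411 UMIs in the newborn set. Wnt7b was at 26.3 CPM in mTEC at P0, Wnt8b at 19.6 in mTEC at 4 weeks, Wnt3 at 12.3 in mTEChi and Wnt7a at 6.38 in mTEClo. Wnt1 reached 4.01 CPM in gp38+CD26+ cells at 4 weeks. In the age series Wnt16 gave 291 UMIs, and Wnt3a and Wnt8a were not analysed there. Against mTEC, cTEC were lower for 7 of 9 of these genes at P0 and 6 of 9 at 4 weeks, such as Wnt10a (-6.40 ± 1.28 at P0, log2 ± SE, adjusted p = 0.00013 in edgeR), where 26.2% and 23.9% of all genes were lower.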
